A study of Sus scrofa with 12 samples.

Results

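Gene expression in the back fat of Yorkshire pigs was compared between 80 d and 9 d of age. The libraries are the 3 labelled Yorkshire at 80 d (YK_80d) and the 3 labelled Yorkshire at 9 d (YK_9d), 6 of the 12 libraries of a study that also sampled Guangdong small-eared pigs at 80 d (GS_80d) and 9 d (GS_9d). All are entered as wild type, with no treatment given. RNA came from subcutaneous fat of the mid-back. Adipocyte is the labelled cell type, but whole fat tissue was the source, so blood vessels, connective tissue and immune cells contribute to every value. The labels used here name neither sex, litter nor diet. They do not say that the samples came from separate animals, so the p-values rest on a sample-to-sample spread that may be technical. Of 24358 genes in the deposited table, 15425 had enough counts to be tested, and 12779 of those have a symbol.

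Subcutaneous back fat is the main fat depot of the pig and a store of triacylglycerol. Around birth it holds little lipid and much connective tissue, and during suckling and after weaning its fat cells fill while the matrix around them is remodelled. Resident macrophages, mast cells and lymphocytes live between the fat cells and along vessels. The Yorkshire is a commercial breed selected for lean growth.

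Library totals ran from 45435480 to 60993349 units over the 6 Yorkshire libraries, where 1 sequenced fragment adds about 3.77 units. Mitochondrially encoded genes took 7.59% to 16.3% of a library. The adipocyte markers ADIPOQ, PLIN1, CIDEC and LEP were detected in all 6 libraries. The Yorkshire libraries were uneven in transcripts of neighbouring tissues. ACTA1, the actin of skeletal muscle, stood at 7821 CPM (counts scaled to library size) in YK_80d replicate 3 and 1443 CPM in YK_9d replicate 1, and between 0.320 and 2.11 CPM in the other 4. The summed level of 38 skin and hair genes was 102.1, 89.57 and 69.23 CPM in YK_80d replicates 1, 2 and 3, against 111.8, 166.5 and 386.7 CPM in YK_9d replicates 1, 2 and 3. KDM5D, a Y-linked gene, had levels that overlapped between the ages, from 4.31 to 20.8 CPM in YK_80d and from 2.47 to 14.4 CPM in YK_9d.

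At 80 d, 125 genes were higher than at 9 d and 61 were lower at an adjusted p under 0.05 in edgeR's quasi-likelihood test. These are 0.81% and 0.395% of the genes tested, 1.21% together. Over all genes the median log2 difference was 0, 50% of differences were positive and 49.9% negative, and 6.96% were higher and 6.52% lower at an unadjusted p under 0.05. The count depended on the libraries used: with the 6 Yorkshire libraries alone 46 genes passed (0.268% of those tested higher and 0.0482% lower), and leaving out 1 Yorkshire library at a time gave 245, 51 and 39 without YK_80d replicate 1, 2 or 3, and 33, 39 and 27 without YK_9d replicate 1, 2 or 3. The GS libraries share in the estimate of the spread, and leaving out GS_80d replicate 1, 2 or 3 gave 75, 94 and 119. Of the 186 genes, 14 passed in every fit that left out 1 Yorkshire library, 9 of them higher at 80 d and 5 lower. Every other gene named here as risen or fallen lost its call without at least 1 Yorkshire library. Of the 14, the 10 with a symbol were ATF3, PMAIP1, RASD1, TEK, HSP70.2, RGS2 and DNAJB1, which rose, and PTK7, PTN and GPR34, which fell. The YK_80d and YK_9d libraries did not overlap for 184 of the 186 genes, against 15.8% of all genes tested (7.77% higher and 8.05% lower at 80 d). The genes were called on these same libraries, so the 184 are no separate support for the calls. DESeq2 called 3.43% of genes higher and 2.1% lower, and limma-voom 0.272% higher and 0.194% lower. In GS back fat 409 genes passed for the same ages (2.65% of those tested, 1.38% higher and 1.27% lower at 80 d), and 41 of the 186 were among them with the same direction, which is 22% of the Yorkshire genes and 10% of the GS genes.

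**Figure D1:**
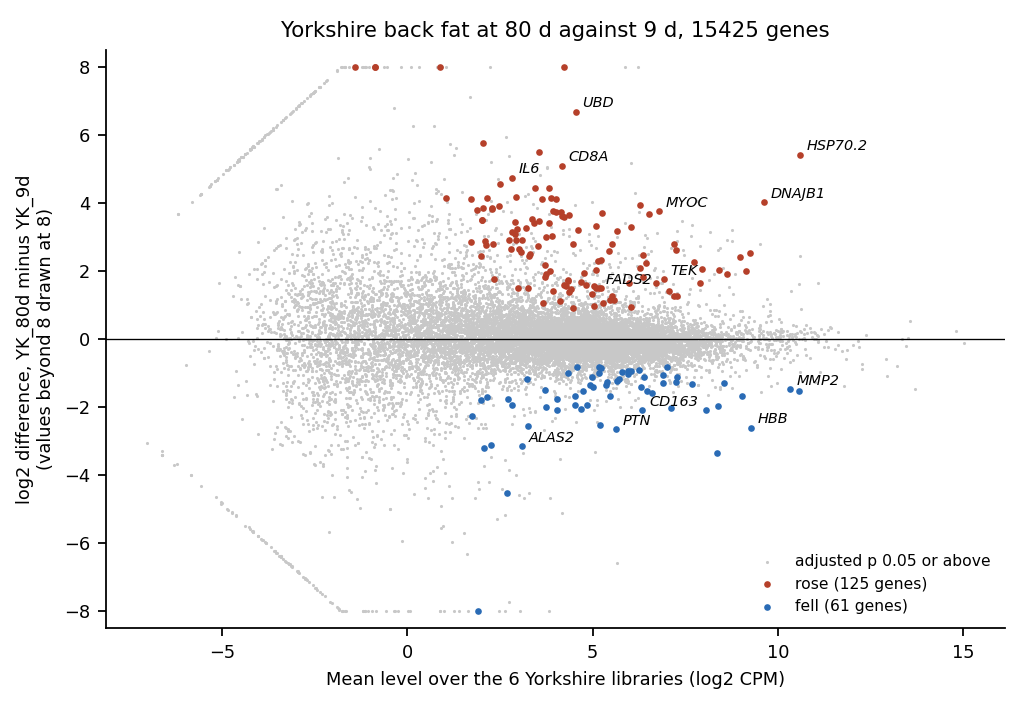
Each point is 1 of 15425 genes, with its mean level over the 6 Yorkshire libraries (log2 CPM) on the horizontal axis and its log2 difference, YK_80d minus YK_9d, on the vertical axis. The 125 genes that rose are in red and the 61 that fell in blue; differences beyond 8 in size, which arise where 1 age is at or near 0, are drawn at 8.

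Part of the cytosolic chaperone system rose at 80 d. Proteins of the HSP70 family fold other proteins in cycles in which J-domain partners load them, exchange factors release the substrate and scaffold proteins hand it on to HSP90. Of 22 tested heat shock genes 6 rose and none fell, against 0.81% and 0.395% of all genes. The median log2 difference was 0.82 over the list, against 0 over all genes. Both the inducible HSP70 gene HSP70.2 and the J-domain gene DNAJB1 were among the 6. HSP70.2 has near-identical copies, so its reads may be shared between them.

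The other 4 make up further steps of the same cycle. HSPA8, the constitutive HSP70 of the cytosol, had 777, 1093 and 833 CPM in YK_80d replicates 1, 2 and 3, against 161, 251 and 266 CPM in YK_9d replicates 1, 2 and 3. All 3 libraries at 80 d lay well above all 3 at 9 d, with a log2 difference of 2.0 ± 0.31 (SE, adjusted p = 0.0183), and of the 6 Yorkshire libraries only YK_9d replicate 1 ended its call when left out (adjusted p = 0.0602). HSPH1, the exchange factor HSP110, averaged 253.8 ± 138.5 CPM in YK_80d and 36.76 ± 11.59 CPM in YK_9d (SD, n = 3 each), and replicate 3 was the lowest of the YK_80d libraries at 94.4 CPM. The J-domain gene DNAJA1 had a log2 difference of 1.27 ± 0.26 (adjusted p = 0.0376). STIP1, which joins HSP70 to HSP90, had 99.1, 77.5 and 82.0 CPM in YK_80d replicates 1, 2 and 3, against 39.7, 43.6 and 51.0 CPM in YK_9d replicates 1, 2 and 3. Its log2 difference was 0.95 ± 0.19 (adjusted p = 0.0395), and it missed the threshold whichever Yorkshire library was left out. PPID, an HSP90 co-chaperone outside the list and chosen after its values were seen, averaged 28.73 ± 3.92 CPM in YK_80d and 15.28 ± 0.725 CPM in YK_9d (adjusted p = 0.0403). Without 1 Yorkshire library 2 to 4 heat shock genes passed, and with the 6 Yorkshire libraries alone 2. None of 17 genes of the unfolded protein response of the endoplasmic reticulum passed, and their median log2 difference was -0.09.

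Genes that respond within minutes to stress, injury or growth factors rose in part as well. Of 36 tested immediate early genes 6 rose and none fell, against 0.81% and 0.395% of all genes. A positive difference was found for 32 of the 36, and the list's median was 1.39. In GS 8 of the 36 rose with age and none fell, with a median of 1.32. The interaction of breed and age passed for none of them. ATF3, a stress-induced repressor and activator of transcription, averaged 171.0 ± 76.13 CPM in YK_80d and 13.44 ± 3.82 CPM in YK_9d, with a log2 difference of 3.67 ± 0.42 (adjusted p = 0.00497). ZFP36, which destabilises cytokine mRNAs, had a log2 difference of 2.43 ± 0.47 (adjusted p = 0.0345). NR4A2, an orphan nuclear receptor, had 1.47 ± 0.30 (adjusted p = 0.0403), DUSP2, a phosphatase of MAP kinases, 2.45 ± 0.52 (adjusted p = 0.0453), and JUN, a subunit of AP-1, 2.53 ± 0.51 (adjusted p = 0.0385).

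IL6, which encodes a cytokine that fat tissue secretes, had 20.4, 13.5 and 6.85 CPM in YK_80d replicates 1, 2 and 3, against 0.489, 0.938 and 0.0811 CPM in YK_9d replicates 1, 2 and 3. The ages did not overlap and the log2 difference was 4.75 ± 0.95 (adjusted p = 0.0376), although the call was lost without any 1 Yorkshire library. EGR1, an early zinc finger factor chosen after its values were seen, averaged 778.1 ± 363.6 CPM in YK_80d and 84.5 ± 69.19 CPM in YK_9d but did not pass (adjusted p = 0.117). Leaving out 1 Yorkshire library left 1 or 2 immediate early genes past the threshold, limma-voom called 2, and DESeq2 called 17 higher and 1 lower.

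RGS2, which shortens Gq signalling and is a target of glucocorticoids and cAMP, had 55.0, 66.0 and 43.1 CPM in YK_80d replicates 1, 2 and 3, against 9.04, 14.2 and 16.5 CPM in YK_9d replicates 1, 2 and 3. Its log2 difference was 2.05 ± 0.26 (adjusted p = 0.00663), and it was the only one of 16 tested glucocorticoid targets to pass, with a list median of -0.17. RASD1, a dexamethasone-induced small G protein, had 37.5, 37.7 and 41.7 CPM in YK_80d replicates 1, 2 and 3, against 6.70, 6.15 and 3.89 CPM in YK_9d replicates 1, 2 and 3. Its libraries were tight within each age, and its log2 difference was 2.80 ± 0.36 (adjusted p = 0.00766). PMAIP1, which encodes the pro-apoptotic protein NOXA, averaged 20.07 ± 3.31 CPM in YK_80d and 2.98 ± 0.605 CPM in YK_9d, a log2 difference of 2.75 ± 0.30 (adjusted p = 0.00392).

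RGS16, another regulator of G protein signalling, had a log2 difference of 2.62 ± 0.42 (adjusted p = 0.0244). The prostaglandin E2 receptor genes PTGER2 and PTGER4 had log2 differences of 1.91 ± 0.40 (adjusted p = 0.0412) and 1.38 ± 0.25 (adjusted p = 0.0269). MYOC, which encodes the secreted glycoprotein myocilin, had 349, 164 and 108 CPM in YK_80d replicates 1, 2 and 3, against 7.89, 18.8 and 18.8 CPM in YK_9d replicates 1, 2 and 3. For MYOC the log2 difference was 3.77 ± 0.63 (adjusted p = 0.0244). RASD1, PMAIP1, RGS16, PTGER2, PTGER4 and MYOC were chosen after their values were seen. None of 18 circadian clock genes passed, and their median log2 difference was 0.33.

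**Figure D2:**
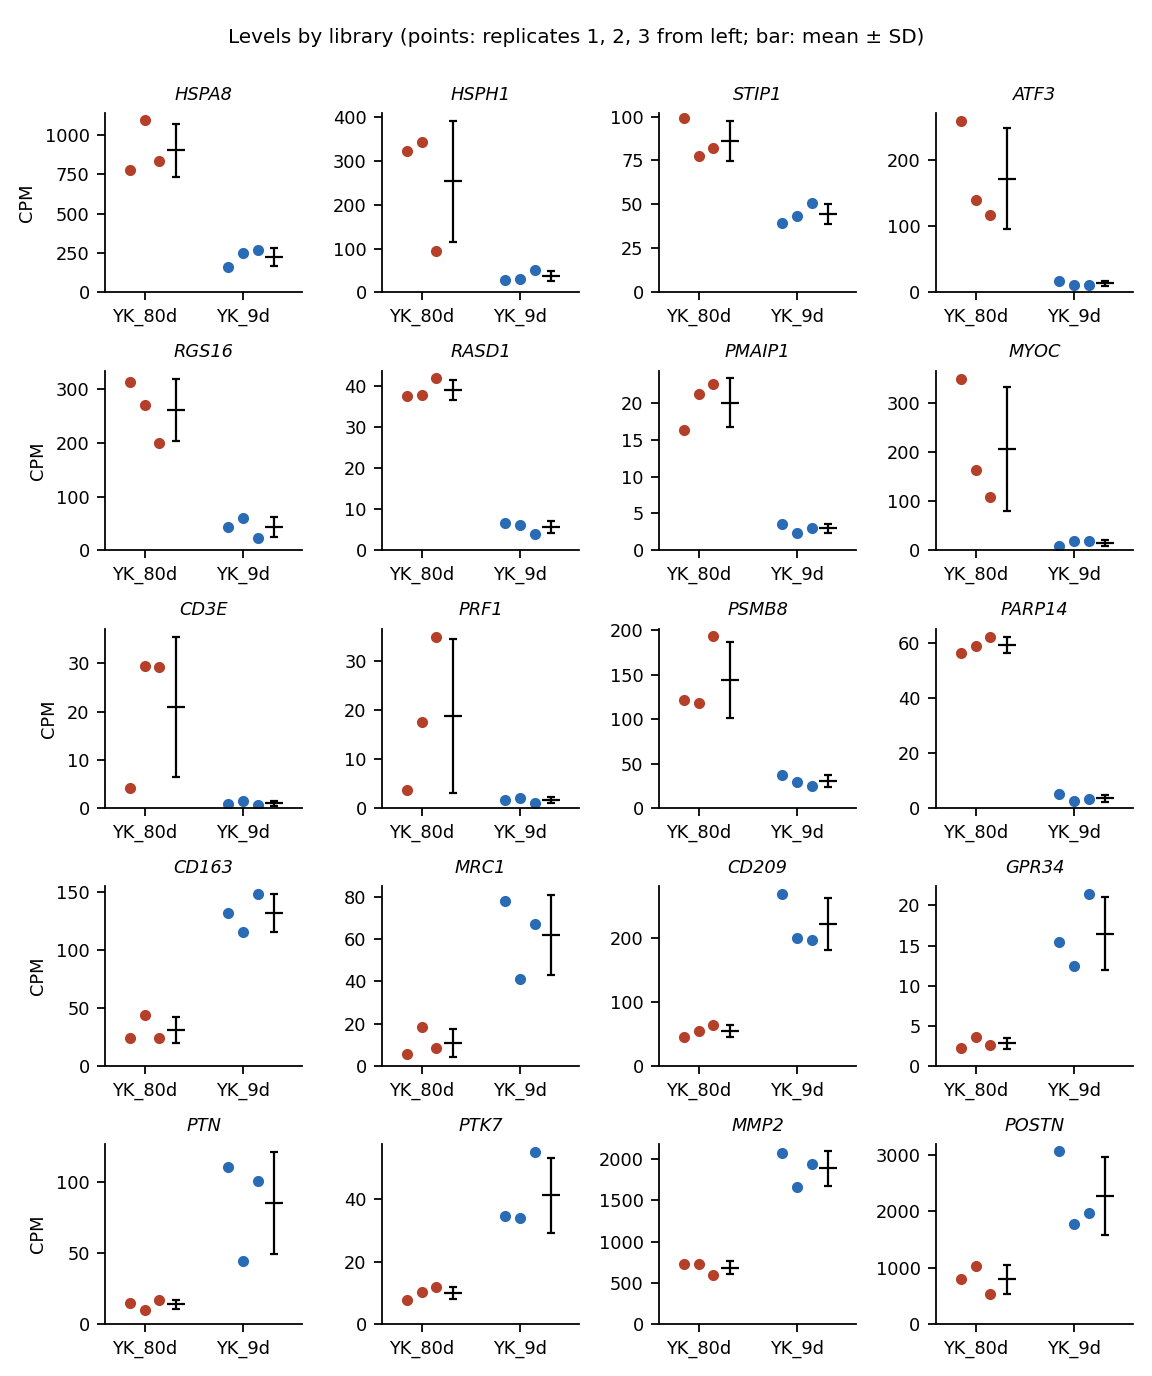
CPM in each library for 20 genes, with the 3 YK_80d libraries in red at left and the 3 YK_9d libraries in blue at right of each panel; the bar is the mean ± SD of a group. Rows hold chaperone and stress genes, signalling genes, lymphocyte and interferon genes, macrophage genes and matrix or growth factor genes; for CD3E and PRF1 replicate 1 is the lowest of the YK_80d libraries, at 4.24 and 3.62 CPM.

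Transcripts of T cells and natural killer (NK) cells rose at 80 d, unevenly between the 3 libraries. Of 32 tested genes of these lymphocytes 13 rose and none fell, against 0.81% and 0.395% of all genes. The median log2 difference was 3.64, or 3.58 with genes at 0 at 1 age set to their bound. In bulk tissue more cells of a type and more RNA per cell cannot be told apart. CD3E, a chain of the T cell receptor complex, had 4.24, 29.5 and 29.2 CPM in YK_80d replicates 1, 2 and 3, against 0.749, 1.46 and 0.648 CPM in YK_9d replicates 1, 2 and 3. Every library at 80 d was above every library at 9 d, but YK_80d replicate 1 was far nearer to them than its 2 partners were, and the log2 difference was 4.46 ± 0.72 (adjusted p = 0.0244).

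YK_80d replicate 1 was also the lowest of its group for genes of cytotoxic cells. CD8A, the co-receptor of cytotoxic T cells, had 4.96, 38.9 and 61.6 CPM in YK_80d replicates 1, 2 and 3, against 0.841, 1.54 and 0.689 CPM in YK_9d replicates 1, 2 and 3 (log2 difference 5.10 ± 0.99, adjusted p = 0.0376). PRF1, the pore-forming protein of their granules, averaged 18.79 ± 15.74 CPM in YK_80d and 1.63 ± 0.538 CPM in YK_9d (adjusted p = 0.0345). KLRK1, the activating NK receptor NKG2D, CD244, another NK receptor, and CD226, an adhesion receptor of both cell types, had log2 differences of 3.78 ± 0.62, 4.55 ± 0.68 and 3.82 ± 0.78. The T cell kinase gene LCK had a log2 difference of 3.74 ± 0.63 (adjusted p = 0.0244).

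ITGB7, an integrin chain of gut-homing lymphocytes, had 6.37, 38.9 and 38.1 CPM in YK_80d replicates 1, 2 and 3, against 1.59, 2.02 and 1.07 CPM in YK_9d replicates 1, 2 and 3. The log2 difference of ITGB7 was 4.15 ± 0.62 (adjusted p = 0.0151). CD247, the zeta chain of the T cell receptor complex, differed from these genes in order: it had 158.6, 72.1 and 150.0 CPM in YK_80d replicates 1, 2 and 3, so that replicate 1 was the highest, against 29.7, 32.4 and 45.4 CPM in YK_9d replicates 1, 2 and 3. IFNG, which encodes interferon gamma, had 1.77, 3.21 and 6.06 CPM in YK_80d replicates 1, 2 and 3 and 0 in all 3 YK_9d libraries. It was at least 53-fold higher at 80 d when YK_9d is set to 3 fragments over the group, a floor that covers counting error only (adjusted p = 0.0345).

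The summed level of the 34 lymphocyte genes in the table was 300.2, 790.4 and 1236 CPM in YK_80d replicates 1, 2 and 3, against 95.13, 102.5 and 100.1 CPM in YK_9d replicates 1, 2 and 3. The count of lymphocyte genes past the threshold followed the libraries used. It was 18 without YK_80d replicate 1, and 0 or 1 without any other single Yorkshire library. With the 6 Yorkshire libraries alone 1 rose, limma-voom called 2 and DESeq2 called 22. Of all genes these called 0.268%, 0.272% and 3.43% higher. None of 19 B cell and plasma cell genes passed.

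Genes that interferons induce had higher levels at 80 d, and the number that passed depended on the test. All 38 tested members had a positive difference, with a median of 1.97. For 37 the libraries did not overlap, while 7.77% of all genes tested were higher without overlap. Only 3 rose at the threshold in edgeR, against 0.81% of all genes. DESeq2 called 28 members higher and limma-voom 2. The 3 were PSMB8 and PSMB9, catalytic subunits of the immunoproteasome, and IRF1, a transcription factor induced by interferon gamma. PSMB8 had 121.5, 118.3 and 193.5 CPM in YK_80d replicates 1, 2 and 3, against 37.3, 29.1 and 24.3 CPM in YK_9d replicates 1, 2 and 3, a log2 difference of 2.26 ± 0.35 (adjusted p = 0.0193). PSMB9 had a log2 difference of 2.32 ± 0.44 (adjusted p = 0.0338) and IRF1 of 1.66 ± 0.33 (adjusted p = 0.0374). With the 6 Yorkshire libraries alone 9 members passed, and without 1 Yorkshire library 0 to 6.

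The spread among GS libraries enters this test. The summed level of the interferon genes was 5581, 4233 and 5088 CPM in YK_80d replicates 1, 2 and 3, against 1597, 1287 and 1236 CPM in YK_9d replicates 1, 2 and 3. In GS it was 1543, 3003 and 2043 CPM in GS_80d replicates 1, 2 and 3, against 7661, 3518 and 1137 CPM in GS_9d replicates 1, 2 and 3, so the GS_9d libraries spanned a wider range than all 6 Yorkshire libraries. PARP14, an ADP-ribosyltransferase induced by interferons, had 56.4, 59.1 and 62.3 CPM in YK_80d replicates 1, 2 and 3, against 5.03, 2.59 and 3.26 CPM in YK_9d replicates 1, 2 and 3. It missed the threshold in the fit of all 12 libraries (log2 difference 4.03 ± 0.88, adjusted p = 0.0574) and passed with the 6 Yorkshire libraries alone (adjusted p = 0.00902). MX1, an antiviral GTPase, had a log2 difference of 2.99 ± 1.01 (adjusted p = 0.213) and passed without GS_9d replicate 3 (adjusted p = 0.0438). PARP14 and MX1 were chosen after their values were seen. The count moved both ways with the GS libraries used. Without GS_9d replicate 1, 2 or 3, 8, 2 and 13 interferon genes passed. Without GS_80d replicate 1, 2 or 3 it was 1, 1 and 2. It was 0 without all 3 GS_80d libraries, and 0 with replicate numbers fitted as a block.

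Genes that prepare and show antigen were among those that rose. UBD, an inducible ubiquitin-like modifier, had 3.47, 43.1 and 91.6 CPM in YK_80d replicates 1, 2 and 3, against 0.658, 0.354 and 0.304 CPM in YK_9d replicates 1, 2 and 3, the largest log2 difference among called genes with a symbol and a mean level of at least 2 log2 CPM (6.69 ± 1.11, adjusted p = 0.0256). ERAP2, a peptidase that trims antigenic peptides and was chosen after its values were seen, averaged 125.3 ± 44.74 CPM in YK_80d and 29.14 ± 2.32 CPM in YK_9d (adjusted p = 0.0294). Of 16 genes of antigen-presenting cells 2 rose and none fell, against 0.81% and 0.395% of all genes. The median of the 16 was 1.26. SLA-DQB1, a chain of the pig's MHC class II molecules, had 164.2, 456.3 and 587.1 CPM in YK_80d replicates 1, 2 and 3, against 115.1, 96.5 and 75.9 CPM in YK_9d replicates 1, 2 and 3 (adjusted p = 0.0355). The other was CD86, a co-stimulatory ligand, with a log2 difference of 2.45 ± 0.48 (adjusted p = 0.0345). The gene named HLA-DRA in the table, another class II chain chosen after its values were seen, had a log2 difference of 1.93 ± 0.42 (adjusted p = 0.0483). As with the lymphocyte genes, YK_80d replicate 1 was the lowest of its group for SLA-DQB1 and UBD, and without it 5 antigen presentation genes passed, against 0 without any other single Yorkshire library. DESeq2 called 8, and limma-voom and the fit of the 6 Yorkshire libraries none.

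Of 36 tested chemokines and chemokine receptors 4 rose and none fell, against 0.81% and 0.395% of all genes. The median of the 36 was 1.04. CCL5, a ligand that draws T cells, had 18.9, 141.9 and 280.5 CPM in YK_80d replicates 1, 2 and 3, against 9.73, 11.6 and 7.46 CPM in YK_9d replicates 1, 2 and 3 (adjusted p = 0.0412). ACKR1 and CCL2 were more even across the YK_80d libraries. ACKR1, a decoy receptor of venules, had 59.6, 63.8 and 59.2 CPM in YK_80d replicates 1, 2 and 3, against 28.8, 31.1 and 23.0 CPM in YK_9d replicates 1, 2 and 3 (log2 difference 1.14 ± 0.20, adjusted p = 0.0256). CCL2, which draws monocytes, averaged 138.4 ± 6.11 CPM in YK_80d and 24.73 ± 15.04 CPM in YK_9d (adjusted p = 0.0473). CCL19, a ligand that guides lymphocytes and dendritic cells, averaged 48.69 ± 12.08 CPM in YK_80d and 16.5 ± 0.447 CPM in YK_9d (adjusted p = 0.0345). The chemokine count was 0 to 9 without 1 Yorkshire library and 0 with the 6 Yorkshire libraries alone, and DESeq2 called 15 higher and 1 lower.

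A few receptors of resident tissue macrophages fell at 80 d. Of 35 tested macrophage and complement genes 4 fell and none rose, against 0.395% lower and 0.81% higher over all genes. A positive difference was found for 13 of the 35, and 5 were higher at an unadjusted p under 0.05. DESeq2 called 5 lower and 2 higher, against 2.1% and 3.43% of all genes, and 1 fell with the 6 Yorkshire libraries alone. CD163, which takes up haemoglobin-haptoglobin complexes, had 24.5, 43.6 and 24.4 CPM in YK_80d replicates 1, 2 and 3, against 131.8, 115.0 and 148.0 CPM in YK_9d replicates 1, 2 and 3. The ages were far apart, with a log2 difference of -2.09 ± 0.36 (adjusted p = 0.0244). MRC1, the mannose receptor, had 5.45, 18.5 and 8.51 CPM in YK_80d replicates 1, 2 and 3, against 78.0, 41.1 and 67.2 CPM in YK_9d replicates 1, 2 and 3 (log2 difference -2.52 ± 0.48, adjusted p = 0.0345).

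VSIG4, a complement receptor of resident macrophages, and LYVE1, a hyaluronan receptor of lymphatic vessels and of macrophages along vessels, fell, with log2 differences of -2.08 ± 0.40 and -1.67 ± 0.34. Outside the list, CD209, a lectin of macrophages and dendritic cells, had 45.8, 55.1 and 64.2 CPM in YK_80d replicates 1, 2 and 3, against 269.5, 200.3 and 197.5 CPM in YK_9d replicates 1, 2 and 3 (log2 difference -2.01 ± 0.41, adjusted p = 0.0395). GPR34, a lysophosphatidylserine receptor of macrophages and microglia, had 2.28, 3.62 and 2.57 CPM in YK_80d replicates 1, 2 and 3, against 15.5, 12.5 and 21.4 CPM in YK_9d replicates 1, 2 and 3. Its log2 difference was -2.54 ± 0.33 (adjusted p = 0.00766), and it passed whichever Yorkshire library was left out.

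The general macrophage markers CD68 and CSF1R did not pass, with log2 differences of -0.77 ± 0.29 (adjusted p = 0.251) and -0.99 ± 0.35 (adjusted p = 0.212). AIF1, a calcium-binding protein of macrophages, lay the other way at 1.30 ± 0.40 (adjusted p = 0.156). CD68, CSF1R and AIF1 were chosen after their values were seen. Without YK_80d replicate 1 the count of list members that fell was 2, without YK_80d replicate 2 it was 3, and without any other single Yorkshire library it was 0. In GS, 5 of the 35 genes fell with age.

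Some genes of the extracellular matrix fell at 80 d. Of 51 tested elastic fibre and matricellular genes 5 fell and none rose, against 0.395% lower and 0.81% higher over all genes. A negative difference was found for 38 of the 51, and the median was -0.42. FBN2, the fibrillin of fetal and early postnatal microfibrils, had 6.84, 9.17 and 6.56 CPM in YK_80d replicates 1, 2 and 3, against 28.0, 23.7 and 23.9 CPM in YK_9d replicates 1, 2 and 3, a log2 difference of -1.74 ± 0.26 (adjusted p = 0.0151). MFAP5, a microfibril-associated glycoprotein, had 115.3, 80.8 and 111.7 CPM in YK_80d replicates 1, 2 and 3, against 621.1, 303.9 and 365.4 CPM in YK_9d replicates 1, 2 and 3 (adjusted p = 0.0355). POSTN, the matricellular protein periostin, averaged 787.3 ± 252.3 CPM in YK_80d and 2268 ± 696.7 CPM in YK_9d (adjusted p = 0.0403).

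DPT, which encodes dermatopontin, a collagen-binding matrix protein, fell by 1.67 ± 0.32 on the log2 scale, and SPARCL1, a relative of osteonectin, fell by 1.30 ± 0.23. Summed over the list the levels were 14400, 15650 and 14030 CPM in YK_80d replicates 1, 2 and 3, against 26290, 22620 and 25250 CPM in YK_9d replicates 1, 2 and 3. DESeq2 called 10 lower and 3 higher. Without 1 Yorkshire library 0 to 2 of the 51 passed. None passed with the 6 Yorkshire libraries alone or without the muscle-rich libraries (YK_80d replicate 3, YK_9d replicate 1 and GS_9d replicate 3). With replicate numbers fitted as a block 1 passed. The list's median was -0.20 without the muscle-rich libraries. It was -0.66 without YK_9d replicates 2 and 3, which leaves 1 library at 9 d.

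A few enzymes that build and cut the matrix passed, in both directions. Of 34 tested proteases and their inhibitors 1 rose and 2 fell (median -0.29), against 0.81% and 0.395% of all genes. Of 24 collagen processing genes 1 fell (median -0.385). With the 6 Yorkshire libraries alone no member of either list passed. MMP2, a gelatinase, had 722.9, 727.7 and 591.9 CPM in YK_80d replicates 1, 2 and 3, against 2079, 1659 and 1940.0 CPM in YK_9d replicates 1, 2 and 3. The 2 ages were well separated, with a log2 difference of -1.48 ± 0.22 (adjusted p = 0.0151), and of the 6 Yorkshire libraries only YK_80d replicate 3 ended the call when left out (adjusted p = 0.0538). LOX, which crosslinks collagen and elastin, and FAP, a protease of activated fibroblasts, fell, with log2 differences of -1.31 ± 0.26 and -1.27 ± 0.25 (adjusted p = 0.0345 for both). PLAT, tissue plasminogen activator, rose, with 61.5, 81.5 and 55.7 CPM in YK_80d replicates 1, 2 and 3, against 31.7, 27.9 and 29.7 CPM in YK_9d replicates 1, 2 and 3 (log2 difference 1.15 ± 0.20, adjusted p = 0.0244).

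No fibrillar or basement membrane collagen passed among the 34 tested, and their median log2 difference was -0.42. At an unadjusted p under 0.05, 12 were lower at 80 d and 4 higher, and DESeq2 called 7 lower and 3 higher. COL1A1 and COL3A1, the main interstitial collagens, had log2 differences of -1.08 ± 0.37 (adjusted p = 0.203) and -1.47 ± 0.43 (adjusted p = 0.132). YK_80d replicate 2 stood apart from its partners: the collagens summed to 15810, 35710 and 16610 CPM in YK_80d replicates 1, 2 and 3, against 59040, 45320 and 49120 CPM in YK_9d replicates 1, 2 and 3. Without that library COL3A1 passed (adjusted p = 0.0213) and 4 collagens were called lower. DCN, the proteoglycan decorin, did not pass, at -0.85 ± 0.26 (adjusted p = 0.145).

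A growth factor gene and a developmental receptor gene fell in every fit without 1 Yorkshire library. PTN, the heparin-binding growth factor pleiotrophin, had 14.5, 9.89 and 16.7 CPM in YK_80d replicates 1, 2 and 3, against 110.7, 44.1 and 101.1 CPM in YK_9d replicates 1, 2 and 3. Its log2 difference was -2.64 ± 0.35 (adjusted p = 0.00766). PTK7, a co-receptor of Wnt planar cell polarity signalling, had 7.73, 10.2 and 11.7 CPM in YK_80d replicates 1, 2 and 3, against 34.5, 34.0 and 55.3 CPM in YK_9d replicates 1, 2 and 3 (log2 difference -2.06 ± 0.25, adjusted p = 0.00639). Both passed whichever Yorkshire library was left out, and both also fell in GS, with log2 differences of -1.88 and -2.64. None of 18 imprinted growth genes passed, and their median log2 difference was -0.42. Among them MEST, a marker of fat expansion in young mice, had -0.86 ± 0.25 (adjusted p = 0.12), and DLK1, the preadipocyte factor, -2.60 ± 1.34 (adjusted p = 0.461). The remaining large decreases were AARD at -3.11 ± 0.56, the CPM gene (carboxypeptidase M, a membrane peptidase) at -1.99 ± 0.36, FAM20A, a pseudokinase of the secretory pathway, at -1.95 ± 0.43, and ARMH4 at -1.76 ± 0.35.

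A few genes of red cells and vessels also differed. Of 10 tested red cell genes 2 fell and none rose, against 0.395% lower and 0.81% higher over all genes. HBB, beta globin, had 77.7, 137.3 and 310.3 CPM in YK_80d replicates 1, 2 and 3, against 740.4, 1687 and 756.5 CPM in YK_9d replicates 1, 2 and 3 (log2 difference -2.60 ± 0.46, adjusted p = 0.026). ALAS2, the first enzyme of haem synthesis in red cell precursors, had 0.767, 0.892 and 3.54 CPM in YK_80d replicates 1, 2 and 3, against 9.47, 27.3 and 8.94 CPM in YK_9d replicates 1, 2 and 3 (adjusted p = 0.0355). Of 28 endothelial genes 1 rose and 1 fell, against 0.81% and 0.395% of all genes: TEK, the angiopoietin receptor TIE2, and LYVE1. No endothelial gene passed with the 6 Yorkshire libraries alone. TEK had 192.4, 210.6 and 158.6 CPM in YK_80d replicates 1, 2 and 3, against 63.7, 36.4 and 65.8 CPM in YK_9d replicates 1, 2 and 3. Its log2 difference was 1.76 ± 0.25 (adjusted p = 0.0096), and the endothelial list as a whole had a median of -0.29.

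Fat cell identity and lipid storage genes did not pass between 80 d and 9 d, except for FADS2. No gene passed among 24 adipocyte markers, 35 factors of fat cell differentiation, 14 genes of triacylglycerol synthesis, 17 of lipolysis, 13 of the lipid droplet, 19 of fatty acid uptake, 25 of fatty acid oxidation and 16 of heat production. The medians of these 8 lists lay between -0.39 and 0.07. These lists hold 163 members when each list is counted in full, so a gene in more than 1 list counts more than once. Of these, 11 were higher and 10 lower at an unadjusted p under 0.05, against 6.96% and 6.52% of all genes tested. DESeq2 called 2 of the 163 higher, edgeR and limma-voom none. ADIPOQ, the hormone adiponectin, averaged 4328 ± 1083 CPM in YK_80d and 5074 ± 3097 CPM in YK_9d, a log2 difference of -0.23 with a 95% interval from -1.11 to 0.65. For PLIN1, the coat protein of the lipid droplet, the difference was 0.01 (interval -0.68 to 0.70), and for PPARG, the master factor of fat cell differentiation, it was 0.13 (interval -0.47 to 0.72). These intervals still admit differences of up to about 1 log2 unit.

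LEP, the hormone leptin, had 25.8, 2.78 and 5.44 CPM in YK_80d replicates 1, 2 and 3, against 15.9, 29.3 and 27.8 CPM in YK_9d replicates 1, 2 and 3. Replicate 1 of YK_80d was as high as the YK_9d libraries, and the difference did not pass (-1.10, interval -3.01 to 0.80). The lipases LPL, which unloads lipoproteins, and LIPE, which breaks down stored fat, had log2 differences of -0.56 ± 0.35 (adjusted p = 0.569) and -0.60 ± 0.29 (adjusted p = 0.395).

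Of 23 lipogenic genes 1 rose, against 0.81% of all genes. FADS2, the desaturase that starts the synthesis of long polyunsaturated fatty acids, had 48.1, 48.8 and 62.6 CPM in YK_80d replicates 1, 2 and 3, against 16.1, 20.1 and 20.1 CPM in YK_9d replicates 1, 2 and 3. All libraries at 80 d were above those at 9 d, with a log2 difference of 1.50 ± 0.26 (adjusted p = 0.0252), and it passed without YK_80d replicate 1 but not without any other single Yorkshire library (adjusted p from 0.0532 to 0.087). FASN and ACACA, which build fatty acids from acetyl-CoA, and SCD, which desaturates them, had log2 differences of -0.05, 0.17 and 0.27. Their 95% intervals ran from -1.16 to 1.06, from -0.67 to 1.01 and from -1.36 to 1.89. In GS the same 3 genes rose with age, by 2.97 log2 units for FASN, 2.52 for ACACA and 6.25 for SCD, and 5 lipogenic genes passed there, but the difference between the breeds did not pass for any of these 3 genes (interaction adjusted p = 0.185 for FASN, 0.18 for ACACA and 0.113 for SCD). ALDH1A2, which makes retinoic acid, had 32, 45.7 and 55.2 CPM in YK_80d replicates 1, 2 and 3, against 4.71, 6.23 and 3.32 CPM in YK_9d replicates 1, 2 and 3 (log2 difference 3.22 ± 0.54, adjusted p = 0.0244). It was the only 1 of 31 thyroid hormone, retinoid and steroid genes to pass.

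**Figure D3:**
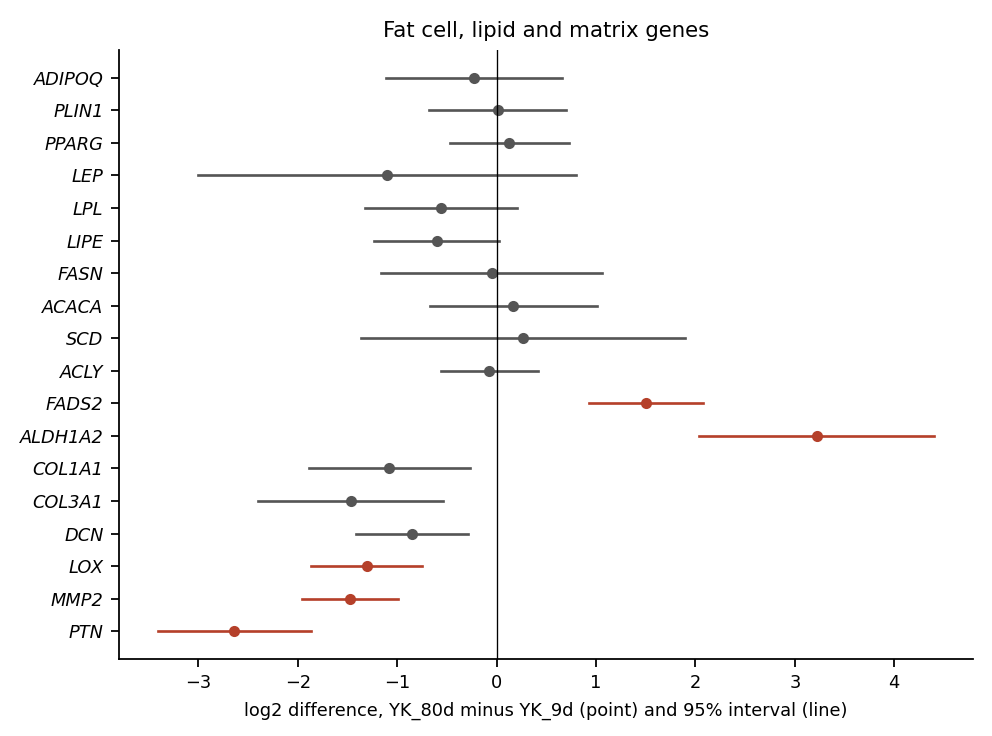
The log2 difference, YK_80d minus YK_9d (point), and its 95% interval (line) for 18 fat cell, lipid, retinoid, matrix and growth factor genes; red marks an adjusted p under 0.05. FADS2 and ALDH1A2 lie right of 0, LOX, MMP2 and PTN lie left of it, and the intervals of ADIPOQ, PLIN1, PPARG, FASN, SCD, ACACA and ACLY span 0.

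Skin and hair genes had lower levels at 80 d, with 1 call. Of 23 tested skin and hair genes 22 had a negative difference, with a median of -3.60, and 1 fell, against 0.395% of all genes. That gene was KRT71, a keratin of the hair follicle sheath, which stood at 0 in all 3 YK_80d libraries and at 1.12, 7.61 and 13.7 CPM in YK_9d replicates 1, 2 and 3. It was at least 102-fold lower at 80 d when YK_80d is set to 3 fragments over the group (adjusted p = 0.0412). SPINT2, a protease inhibitor of epithelia, was the 1 of 21 simple epithelium genes that fell, averaging 9.66 ± 1.52 CPM in YK_80d and 36.73 ± 24.83 CPM in YK_9d (adjusted p = 0.0473). The part of adhering skin in the other decreases was not tested. Leaving out YK_9d replicates 2 and 3, the libraries richest in skin transcripts, leaves 1 library at 9 d. The median of the skin and hair genes was then -1.16.

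None of 35 skeletal muscle genes passed, although all 35 had a positive difference and the median was 2.47. Their summed level was 667.8, 612.4 and 22790 CPM in YK_80d replicates 1, 2 and 3, against 4197, 932.6 and 633.6 CPM in YK_9d replicates 1, 2 and 3, so that YK_80d replicate 3 and YK_9d replicate 1 stood above the other 4. The median was 0.48 with limma-voom and 0.3 without the muscle-rich libraries. Nor did any pass of 66 cell cycle genes (median 0.54), 46 cytosolic ribosomal protein genes (0.12), 55 nuclear (0.03) and 13 mitochondrial (0.01) respiratory chain genes, 24 glycolytic and hypoxia genes (0.22) or 51 genes of Wnt, BMP and TGF-beta signalling (-0.24). The 32 lists with no call by edgeR hold 726 members when each list is counted in full. Of these, 44 were higher and 54 lower at an unadjusted p under 0.05, against 6.96% and 6.52% of all genes tested. DESeq2 called 16 of the 726 members higher and 18 lower, against 3.43% and 2.1% of all genes. With limma-voom none was called higher and 1 lower. The cell cycle median moved with the setting: it was 0.22 with limma-voom, 0.22 without the muscle-rich libraries, and -1.21 without YK_80d replicates 2 and 3, which leaves 1 library at 80 d. Of 27 genes of stromal progenitors 1 rose, against 0.81% of all genes, while the list's median was -0.72. That gene was LY6E, which interferons also induce, with a log2 difference of 3.02 ± 0.60 (adjusted p = 0.0401).

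**Figure D4:**
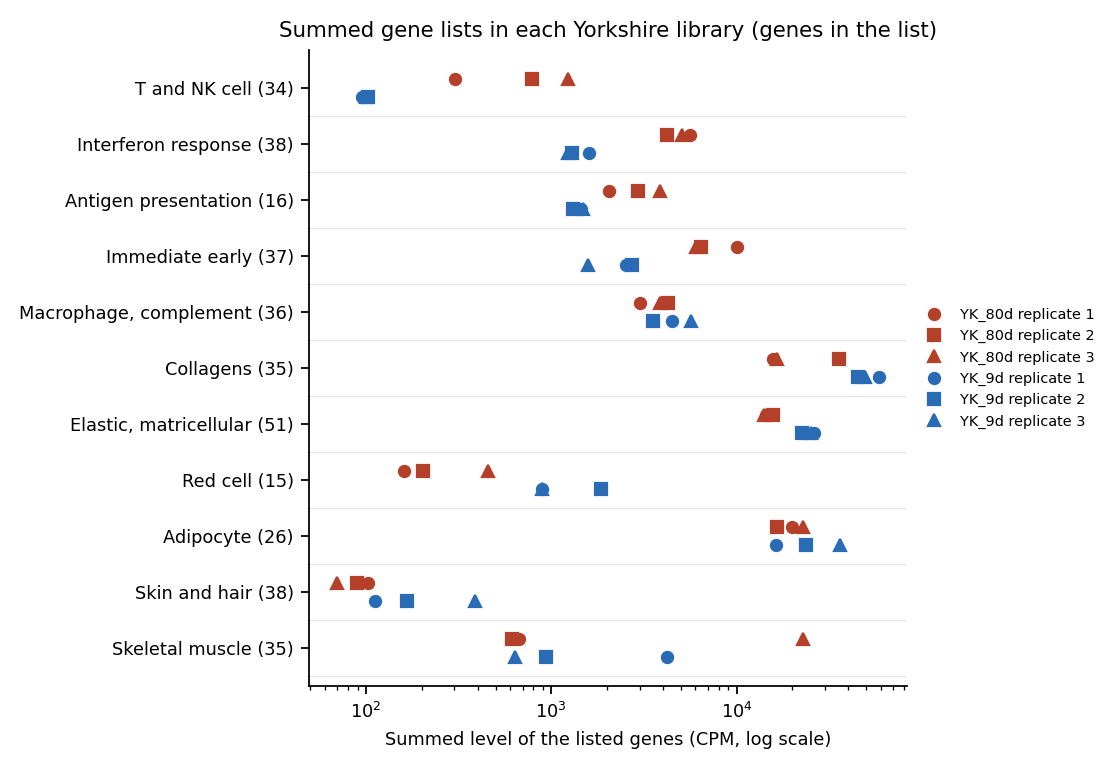
Summed CPM of 11 gene lists in each Yorkshire library on a log axis, with YK_80d in red above YK_9d in blue and a marker shape for each replicate. The ages do not overlap for the lymphocyte, interferon, antigen presentation, immediate early, collagen, elastic and matricellular, red cell and skin lists; they overlap for the macrophage, adipocyte and skeletal muscle lists.

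The age difference in Yorkshire was set against that in GS by the interaction of breed and age. It passed for 10 genes (0.0648% of those tested), 7 with a higher difference in Yorkshire (0.0454%) and 3 with a lower one (0.0194%). HSP70.2 and DNAJB1 rose in Yorkshire by 5.42 ± 0.38 and 4.04 ± 0.28 log2 units, against differences of 0.41 and 0.41 in GS that did not pass, and the interaction was 5.01 ± 0.47 (adjusted p = 0.00188) and 3.62 (adjusted p = 0.00217). RASD1 and RGS2 also rose in Yorkshire and had differences of -0.65 and -0.21 in GS that did not pass, with interactions of 3.46 (adjusted p = 0.0329) and 2.26 (adjusted p = 0.0493). RGS2 had 19.7, 24.5 and 28.9 CPM in GS_80d replicates 1, 2 and 3, against 28.3, 30.3 and 26.2 CPM in GS_9d replicates 1, 2 and 3, so the GS libraries overlapped.

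EPSTI1, an interferon-induced gene, moved in opposite directions in the 2 breeds. It had 34.9, 16.2 and 29.1 CPM in YK_80d replicates 1, 2 and 3, against 2.13, 3.57 and 4.03 CPM in YK_9d replicates 1, 2 and 3. In GS it had 4.21, 3.34 and 4.08 CPM in GS_80d replicates 1, 2 and 3, against 61, 28.9 and 6.05 CPM in GS_9d replicates 1, 2 and 3, and the interaction was 6.09 ± 0.91 (adjusted p = 0.0455). GNLY, the granule protein granulysin of cytotoxic cells, rose in Yorkshire (47.5, 165.0 and 146.1 CPM in YK_80d replicates 1, 2 and 3, against 15.5, 10.1 and 10.5 CPM in YK_9d replicates 1, 2 and 3). In GS it had 4.14, 13.7 and 7.64 CPM in GS_80d replicates 1, 2 and 3, against 38.9, 55.9 and 16.9 CPM in GS_9d replicates 1, 2 and 3.

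The other 4 did not pass in Yorkshire. MARCO, a scavenger receptor of macrophages, had 2.49, 7.70 and 8.86 CPM in YK_80d replicates 1, 2 and 3, against 3.81, 5.61 and 3.51 CPM in YK_9d replicates 1, 2 and 3, while it was at 0 in all 3 GS_80d libraries and at 9.74, 8.53 and 2.31 CPM in GS_9d replicates 1, 2 and 3. ACLY, which supplies acetyl-CoA for fatty acid synthesis, averaged 71.5 ± 13.6 CPM in YK_80d and 75.2 ± 17.4 CPM in YK_9d, and in GS it rose by 2.10 log2 units (interaction -2.17, adjusted p = 0.041). CLMP, an adhesion molecule also known as ASAM, had 57.6, 53.6 and 53.0 CPM in YK_80d replicates 1, 2 and 3, against 101.9, 101.2 and 130.8 CPM in YK_9d replicates 1, 2 and 3 (adjusted p = 0.0513), and in GS it rose by 1.61 log2 units. LBR, the lamin B receptor, had a difference of -0.59 in Yorkshire (adjusted p = 0.264) and rose by 1.83 log2 units in GS. Without YK_80d replicate 1 the interaction passed for 90 genes, without GS_9d replicate 3 for 46, and without any other single library for 5 to 10.

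**Figure D5:**
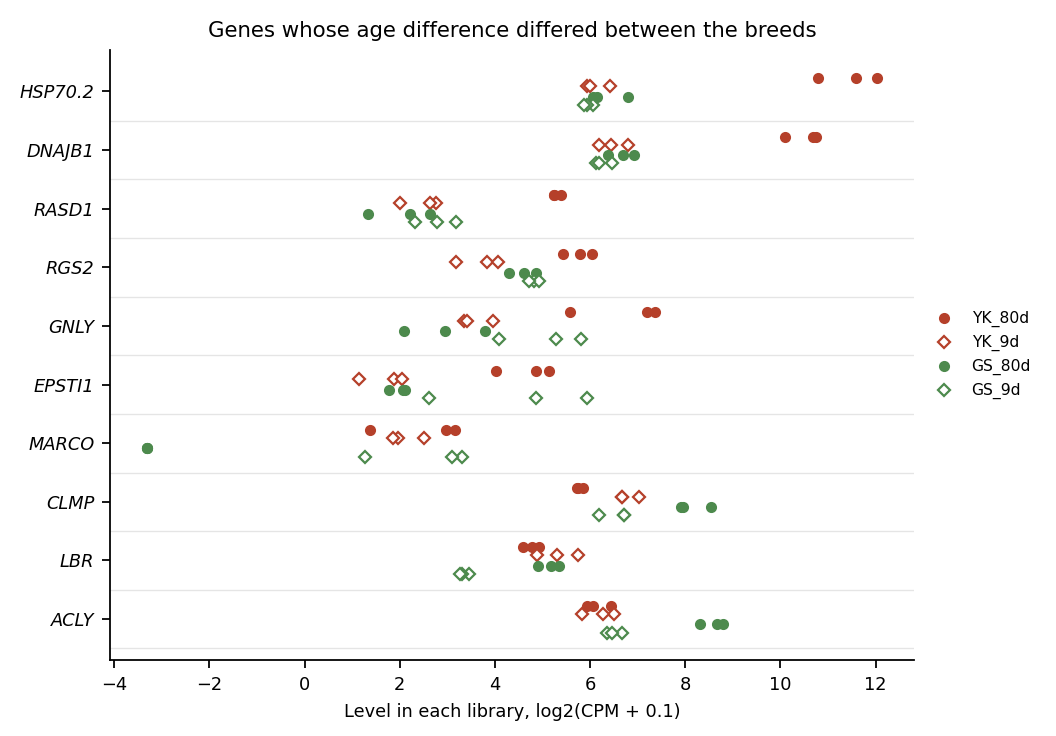
Level in each library, as log2(CPM + 0.1), for the 10 genes whose age difference differed between the breeds; for each gene Yorkshire (red) stands above GS (green), with filled circles for 80 d and open diamonds for 9 d. The filled red circles of HSP70.2, DNAJB1, RASD1 and RGS2 stand apart from the other 3 groups, and the filled green circles of ACLY, CLMP and MARCO do.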

How the data were processed

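RNA of the mid-back subcutaneous fat of pigs was sequenced in 12 libraries, 3 each of YK_80d, YK_9d, GS_80d and GS_9d. TRIzol was used for the RNA and a stranded KAPA kit for the libraries, per the labels' protocols. The authors deposited expected counts, unscaled, in 1 table for 24358 pig Ensembl gene IDs, of which 5389 are at 0 in every library. For the aligner, counter, annotation and use of the strand, details were not given in the sources used here. Reads of overlapping genes may not have been told apart. The submitters' processing notes name only mm10, a mouse build, so no coordinates are printed. Small values cluster near multiples of 3.77 units, taken as the size of 1 fragment, so deposited values overstate fragments by that factor.

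Values were already whole numbers and were tested as deposited. Gene symbols were looked up by ID (14692 matched). Genes passing edgeR's filterByExpr were scaled with TMM factors (0.888 to 1.1) and fitted with edgeR 4.0.16 under R 4.3.3 (robust quasi-likelihood) over all 12 libraries with the 4 groups as terms, which left 8 residual degrees of freedom. The GS libraries thus share in the estimate of the spread. The contrasts were YK_80d minus YK_9d, the same in GS, and their difference, YK minus GS. Tests were two-sided, with Benjamini-Hochberg adjustment over the 15425 genes and a threshold of 0.05. SE is the difference over the root of its F statistic. Levels are CPM with TMM scaling, which are not divided by gene length and so were not compared between genes. A floor of 3 fragments over a group covers counting error only.

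Alternatives were RLE factors, DESeq2 1.42.0, limma-voom (limma 3.58.1), other filters, values divided by the fragment size, fewer libraries, a replicate block, and each library left out. The 51 gene lists (1618 entries) are described by counts and medians, with no test of a list. The members, the lists and the naming rule were chosen with earlier results of these data known. The rule took the 15 largest increases and 15 largest decreases among called genes that have a symbol, average 2 log2 CPM or more and have ages that do not overlap, up to 5 called members of each list (or its 2 most abundant where none passed), a fixed set of fat, growth and matrix genes, and 5 interaction genes each way. CIDEC, RASD1, STIP1, DUSP2, PRF1, IFNG and, where so marked in the text, other genes fall outside it and were picked with their values in view. Not every gene the rule takes is reported here. The procedure was tested on simulated counts with the spread of these libraries. It recovered 7% of 100 genes changed 2-fold in YK_80d and 55.7% of 97 changed 4-fold, with 3 false calls. A gene that did not pass may therefore still differ between the ages.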

Additional observations from a re-analysis of the deposited data

Results flagged for a closer look

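The difference between YK_80d and YK_9d differed from that between GS_80d and GS_9d, by the interaction test in edgeR, for 10 genes (0.0648% of those tested). Groups of 3 libraries are too small for the test of a single outlying sample, so none was run. As YK minus GS on the log2 scale, the interaction was 5.01 for HSP70.2, 3.62 for DNAJB1, 3.46 for RASD1, 2.26 for RGS2, 5.45 for GNLY and 6.09 for EPSTI1, all of which rose with age in Yorkshire. It was -2.64 for CLMP, -2.42 for LBR and -2.17 for ACLY, which rose with age in GS and did not pass in Yorkshire. For MARCO the fitted value was 12.12, which depends on the prior count because all 3 GS_80d libraries are at 0, and is no bound.

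HSP70.2, DNAJB1 and CLMP had adjusted p-values of 0.00188, 0.00217 and 0.00956, MARCO of 0.00956, and LBR of 0.0202. The other 5, RASD1, ACLY, GNLY, EPSTI1 and RGS2, lay between 0.0329 and 0.0493. Muscle, skin and lymphocyte transcripts differed between the libraries of both breeds, and their part in these values was not tested.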

How the results depend on the processing

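The main limits are the 3 libraries per age, a median SE of 0.347 log2 units over all genes, and the uneven skin, muscle and lymphocyte transcripts. The 186 age calls in Yorkshire became 853 with DESeq2 (185 of the 186 among them), 72 with limma-voom (70), 46 with the 6 Yorkshire libraries alone (29), and 22 without the 3 GS_80d libraries. They became 51 without the muscle-rich libraries, 14 without YK_9d replicates 2 and 3 (the most skin transcripts) and 74 without YK_80d replicates 2 and 3 (the most lymphocyte transcripts). Leaving out 1 library at a time gave 27 to 245, the GS libraries included: 75, 94 and 119 without GS_80d replicate 1, 2 or 3. Fits that leave libraries out also hold fewer samples, and the cause of these moves was not tested. RLE factors, other filters, fragment-sized values and leaving out mitochondrial genes kept the count between 143 and 226. The 409 GS calls became 1465 with DESeq2, 1055 with the 6 GS libraries, 150 without the muscle-rich libraries and 78 (without GS_9d replicate 1) to 532 with 1 library left out. The 10 interaction calls became 367 with DESeq2 (all 10 among them), 6 with limma-voom (6), 15 without the muscle-rich (5), 4 without the skin-rich (2) and 21 without the lymphocyte-rich libraries (3), and 5 to 90 with 1 library left out.

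The replicate numbers were not taken as pairs in the main fit. Same-numbered libraries of the 2 ages had deviations that correlated at -0.057, 0.201 and 0.146, and not every library correlated best with its own number. With 3 libraries per age these correlations cannot settle whether the numbers mark a pairing. A fit with the replicate block gave 27 calls in Yorkshire, 532 in GS and 4 for the interaction, against 186, 409 and 10 without it.

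Of 97 genes with a value, 72 passed, and these kept their direction in all of their 1790 values under 25 alternatives, of which 799 missed the threshold. Among the other 25 genes, 24 of 624 values had the opposite sign. Without the skin-rich libraries FASN was at 0.70, ACLY at 0.34 and ADIPOQ at 0.76. Without the muscle-rich libraries FASN was at 0.08, PLIN1 at -0.31 and PPARG at -0.20. Without the lymphocyte-rich libraries FASN was at 0.088, SCD at -0.016, PPARG at -0.004, LEP at 0.083 and MARCO at -0.79. With 1 Yorkshire library left out the ranges were -0.49 to 0.37 for FASN, -0.50 to 0.76 for SCD, -0.23 to 0.12 for ACLY, -0.15 to 0.40 for PLIN1, -0.53 to 0.36 for ADIPOQ and -0.071 to 0.44 for PPARG.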
